A study of Mus musculus with 12 samples.

Results

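The oxidative phosphorylation genes described here are the nuclear genes whose mouse symbols begin with Nduf, Sdha to Sdhd, Uqcr, Cox4 to Cox8 or Atp5, together with Cycs, which encodes cytochrome c. Among the array's 46628 probes, 62 carried a name that gives 1 of these genes, and they stood for 54 genes, of 120 matching symbols in the reference. Of the 62, 55 probes for 50 genes had a detection score above 0.99 on at least 3 arrays, as did 16717 probes in all. Only 5017 of those 16717 had a gene name, so further probes of these genes may lie among the unnamed ones. The 55 probes fell to complex I (25 probes), complex II (3), complex III (4), complex IV (13), complex V (9) and cytochrome c (1), with the assembly factors that carry such symbols counted under the complex they serve. The genes were taken by name, but the naming rule was set with earlier results of these data known, so the set as a whole has no test.

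The samples were organotypic hippocampal slice cultures, thin slices of hippocampus kept alive in a dish, from C57BL/6J mice of both sexes, and total RNA was hybridised to Illumina bead arrays. Each group had 3 arrays and each treatment lasted 2 h. The IS + DIDS slices received an ischemic solution (IS), a bath that imitates the fluid around brain cells cut off from blood, together with DIDS, a stilbene disulfonate that blocks many anion channels and transporters. The IS slices received the ischemic solution alone, the ACSF + DIDS slices received artificial cerebrospinal fluid (ACSF) with DIDS, and the Control ACSF slices received artificial cerebrospinal fluid alone. The labels give no age, dose or culture of origin, and they do not say that the 3 samples of a group came from separate cultures, so p-values cover the spread between these samples, which may be technical. The comparisons asked what the ischemic solution did to these transcripts, what adding DIDS did to slices in that solution, and what DIDS did without it.

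Oxidative phosphorylation takes place in the inner mitochondrial membrane. Complex I (NADH dehydrogenase) and complex II (succinate dehydrogenase) pass electrons from metabolites to ubiquinone, complex III passes them to cytochrome c, and complex IV (cytochrome c oxidase) hands them to oxygen, while complexes I, III and IV pump protons. Complex V, the ATP synthase, uses the proton gradient to make ATP, on which neurons depend and which runs down when oxygen and glucose are withdrawn. The mitochondrial genome encodes core subunits of complexes I, III, IV and V, which lie outside the naming rule.

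Values below are log2 of the intensities in the authors' normalized table, which holds 1 column per sample. The scanner files of 3 samples (IS 2, ACSF + DIDS 1 and IS + DIDS 1) each repeated another sample's array, with 0 of 46628 signals differing, so chip and detection were known for 9 of the 12 arrays. IS + DIDS 1 stood apart from the other 11 arrays, with a score of 50.59 on the first principal component, against -17.69 to 8.92 elsewhere, and a mean correlation of 0.9833 with the other arrays, against 0.9885 to 0.9907. The array titled ACSF + DIDS 2 is called IS+DIDS in its description, and it was most like ACSF + DIDS 1 (r = 0.9947). The counts and medians on IS + DIDS are therefore given with and without IS + DIDS 1, as are the differences of members that it moved most, and group names follow the titles. Summed neuronal markers (6 probes) were 19126 to 26284 intensity units in IS + DIDS, 22291 to 27122 in IS, 26303 to 30718 in ACSF + DIDS and 22551 to 27131 in Control ACSF. Slices hold several cell types, and in such bulk RNA fewer cells of a type and less RNA per cell cannot be told apart.

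Adding DIDS to the ischemic solution went with slightly higher signals across the set. In IS + DIDS against IS, 54 of 55 probes had a positive log2 difference, against 52.5% of all tested probes, and the median difference of the members was 0.13, against 0.01 for all tested probes. The members' differences ran from -0.01 to 0.57. Only Ndufb4, an accessory subunit of complex I, passed the adjusted threshold of 0.05 (limma with Benjamini-Hochberg adjustment over all 16717 probes), and it rose; 0.664% of all tested probes rose past that threshold and 2.41% fell, 3.07% in all. At an unadjusted p under 0.05, 11 of the 55 probes (20.0%) were higher and 0 lower. Of all tested probes 18.0% had such a p, 8.33% higher and 9.68% lower. The 3 IS + DIDS arrays lay above the 3 IS arrays for 18 of the 55 probes, against 11.7% of all probes, and lay below them for 0 (11.3% of all probes).

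The size of this difference across the set depended on which arrays were used. Without IS + DIDS 1, 46 of 55 probes were positive and the median was 0.08, against 53.6% and 0.02 for all tested probes. In that fit 9 probes had an unadjusted p under 0.05, all higher, against 8.14% of all probes that were higher and 18.2% in either direction. IS + DIDS 1 held the highest of the 12 values for 27 of the 55 members. Relative to each probe's mean over the 12 arrays, the median member stood at 0.18 on IS + DIDS 1, 0.03 on IS + DIDS 2 and 0.06 on IS + DIDS 3. The same median was -0.02, -0.07 and -0.06 on the IS arrays, and between -0.07 and 0.01 on the other 6 arrays. All 3 IS + DIDS arrays thus stood above the other 9, with IS + DIDS 1 well above its 2 companions. Whether what set that array apart also raised the members was not tested.

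The remaining comparisons gave no call among the members. In IS against Control ACSF, 24 of 55 probes were higher, against 49.2% of all tested probes, with a median difference of -0.02 and a range of -0.21 to 0.28. None passed the adjusted threshold in limma, against 0.891% of all tested probes (0.329% higher and 0.562% lower), and 0 had an unadjusted p under 0.05, against 8.92% (4.33% higher). The IS arrays lay wholly above Control ACSF for 3 members and wholly below for 1, against 7.35% and 8.58% of all probes. In ACSF + DIDS against Control ACSF, 37 of 55 were higher, with a median of 0.02, against 50.6% and 0.00 for all tested probes. None passed the adjusted threshold, against 0.592% of all probes (0.173% higher and 0.419% lower), and 2 had an unadjusted p under 0.05 (8.79% of all probes, 3.57% higher), namely Ndufb2 and Cox7a2l, both higher. Without overlap, 3 members were higher and 3 lower, against 7% and 8.64% of all probes. In IS + DIDS against ACSF + DIDS, 46 of 55 were higher, with a median of 0.10, against 51% and 0.01 for all tested probes. None passed the adjusted threshold, against 2.47% of all probes (0.814% higher and 1.66% lower). An unadjusted p under 0.05 was reached by 8 members (14.5%), all higher, against 20.9% of all probes (10.1% higher and 10.8% lower). Without overlap, 11 members were higher and 0 lower, against 13.6% and 12.5%. That comparison had, without IS + DIDS 1, 39 of 55 probes higher and a median of 0.06, against 50.8% and 0.00 for all tested probes. Only 5 members, all higher, were then under that p, against 7.47% of all probes that were higher. All 6 neuronal marker probes were higher in ACSF + DIDS than in Control ACSF, by 0.11 (Syt1) to 0.34 (Map2, adjusted p = 0.749 in limma). All 6 were lower in IS + DIDS than in ACSF + DIDS, with a median of -0.32 (-0.15 without IS + DIDS 1). Of them 1, Map2, had an unadjusted p under 0.05 in that comparison (-0.78, SE 0.24, adjusted p = 0.102). Microglial markers were higher there for 4 of 4 probes (3 of 4 without IS + DIDS 1), oligodendrocyte markers for 3 of 3, astrocyte markers for 2 of 4 and Dcn, a fibroblast marker, for 0 of 2, with 0 called. The part of these markers in the members' differences was not tested. IS + DIDS and IS arrays each serve in more than 1 of these comparisons, so the comparisons are not independent of each other.

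The interaction asks whether the ischemic solution acted differently with DIDS than without it. Its median over the members was 0.12, with 44 of 55 positive, against 0.00 and 50.5% for all tested probes. Of the members 0 passed the adjusted threshold, against 0.532% of all tested probes (0.179% higher and 0.353% lower). An unadjusted p under 0.05 was reached by 6 probes, all positive, against 10.8% of all probes (5.25% positive). Leaving out IS + DIDS 1 gave a median of 0.06, with 36 of 55 positive, against a median of 0.02 for all tested probes. With median scaling of the scanner signals of 9 arrays the interaction's median was -0.08, with 19 of 55 positive, against -0.09 for all tested probes.

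**Figure D1:**
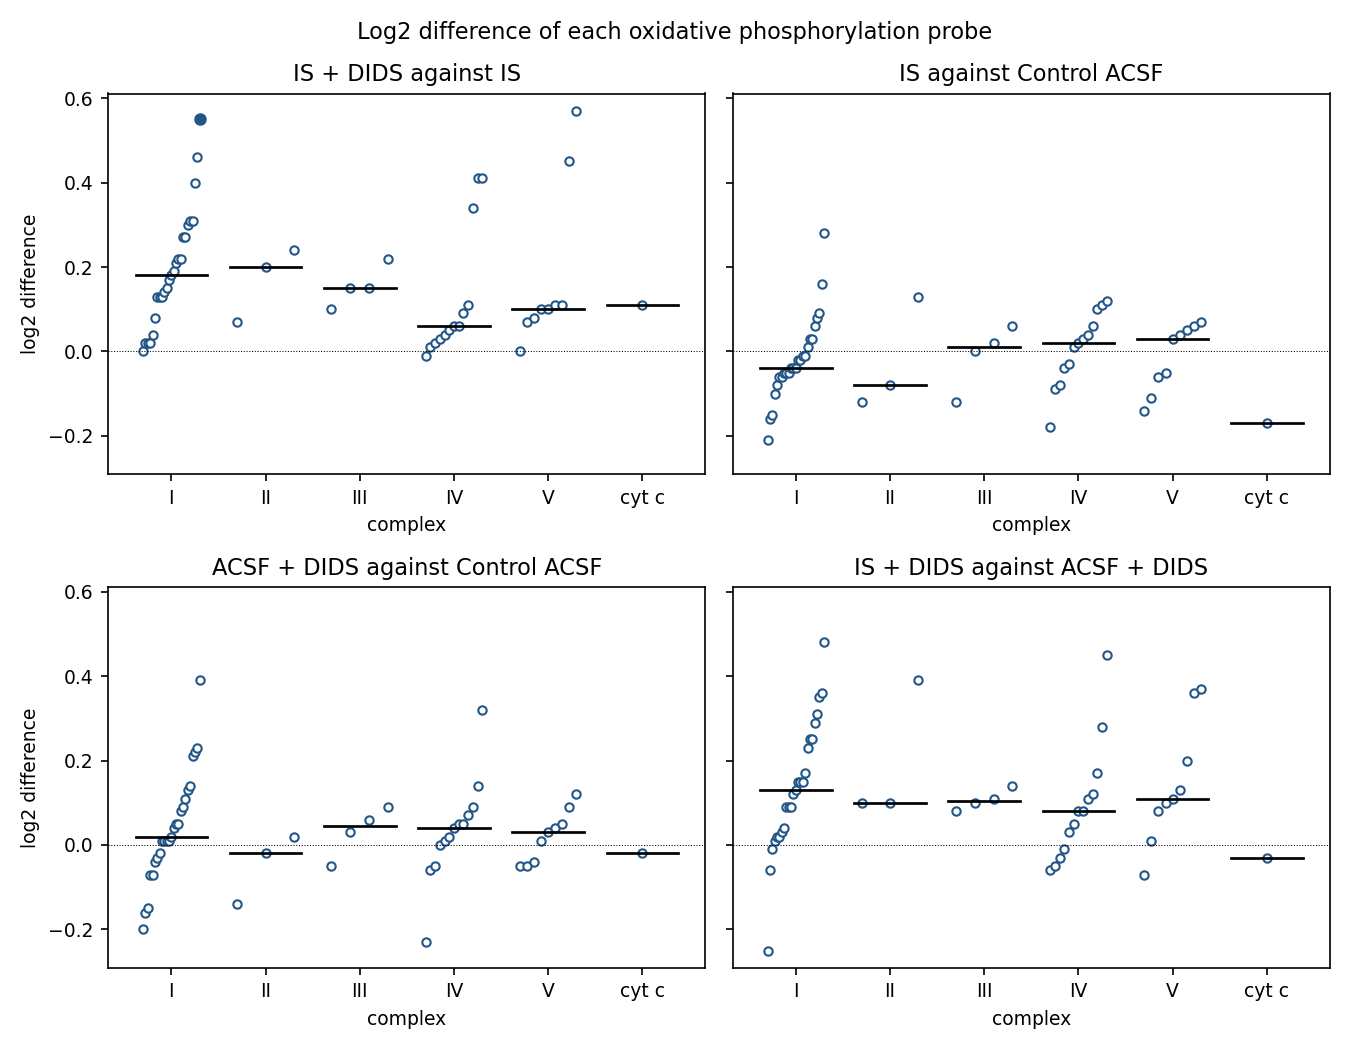
Log2 difference (vertical axis) of each of the 55 oxidative phosphorylation probes in 4 comparisons, by complex (horizontal axis, with cyt c for cytochrome c). Open circles are single probes, the filled circle is the probe past an adjusted p of 0.05 (Ndufb4), and bars are medians. In IS + DIDS against IS 54 of 55 circles lie above 0, while in IS against Control ACSF 24 do.

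Complex I held 25 of the 55 probes and most of those whose groups did not overlap. All 25 of its probes were positive in IS + DIDS against IS, with a median log2 difference of 0.18. Of them 11, of 18 among all members, were higher without overlap, against 11.7% of all tested probes. The 25 include a pseudogene probe and assembly factors, and the assembly factors Ndufaf2 and Ndufaf4 are among the 11. The count was 20 of 25 and the median 0.12 without IS + DIDS 1, and with chip as a block over the 9 arrays of known chip it was 20 of 25 and 0.13. In IS against Control ACSF 8 of the 25 were positive, with a median of -0.04.

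Ndufb4 sits in the membrane arm of complex I. It read 11.92, 11.77 and 11.91 in IS + DIDS, 11.20, 11.30 and 11.46 in IS, 11.13, 11.59 and 11.45 in ACSF + DIDS, and 11.38, 11.36 and 11.40 in Control ACSF. Every IS + DIDS array was above all 9 others, and the other 3 groups overlapped. Ndufb4 rose by 0.55 in IS + DIDS against IS (SE 0.13, 1.46-fold, adjusted p = 0.0360 in limma), with means of 11.87 ± 0.09 and 11.32 ± 0.13 (SD, n = 3 each). Its difference against ACSF + DIDS was 0.48 (SE 0.13, adjusted p = 0.0655), and its interaction term was 0.54 (SE 0.18, adjusted p = 0.287). The difference from IS kept its sign and lay between 0.38 and 0.65 under the 31 alternatives tried, but the call was lost in 21 of them. It was lost when any 1 of 7 arrays was left out, with adjusted p of 0.163 without IS 1, 0.101 without IS 2, 0.0695 without IS + DIDS 1, 0.0719 without IS + DIDS 2, 0.102 without IS + DIDS 3, 0.0577 without Control ACSF 1 and 0.0547 without Control ACSF 2.

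Ndufb9 and Ndufb5 are accessory subunits of the same membrane arm. Ndufb9 read 11.67, 11.80 and 11.98 in IS + DIDS, 11.27, 11.32 and 11.49 in IS, 11.45, 11.68 and 11.64 in ACSF + DIDS, and 11.56, 11.42 and 11.72 in Control ACSF. Its IS + DIDS arrays were above its IS arrays, by 0.46 (SE 0.12, adjusted p = 0.0653), and its IS values were mostly below Control ACSF, by a difference of -0.21 (SE 0.12, adjusted p = 0.671). With the replicate number as a block the first of these passed the threshold (adjusted p = 0.0388), as it did without IS + DIDS 1, where the difference was 0.53 (adjusted p = 0.0480). Ndufb5 read 12.30, 12.45 and 12.55 in IS + DIDS, 12.02, 11.99 and 12.07 in IS, 12.08, 12.30 and 12.41 in ACSF + DIDS, and 12.15, 12.05 and 12.19 in Control ACSF. Its lowest IS + DIDS array was above its highest IS array, and the difference was 0.40 (SE 0.11, adjusted p = 0.0760), or 0.47 without IS + DIDS 1 (adjusted p = 0.0535). With neqc on the scanner signals of 9 arrays Ndufb5 passed the threshold in limma, at 0.49 (adjusted p = 0.0437), while Ndufb4 did not (0.57, adjusted p = 0.0644).

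Ndufb2, another membrane arm subunit, was higher with DIDS in both fluids. It read 8.98, 9.10 and 9.07 in IS + DIDS, 8.86, 8.68 and 8.67 in IS, 9.13, 9.04 and 8.73 in ACSF + DIDS, and 8.45, 8.60 and 8.69 in Control ACSF. Neither pair of groups overlapped. The difference was 0.31 (SE 0.12, adjusted p = 0.194) in IS + DIDS against IS, and 0.39 (SE 0.12, adjusted p = 0.314) in ACSF + DIDS against Control ACSF, the smallest unadjusted p of any member there. In IS against Control ACSF it was 0.16 (SE 0.12, adjusted p = 0.792) and turned to -0.01 on chip 2 alone. The other membrane arm subunits of this naming group differed less in IS + DIDS against IS, by 0.17 for Ndufb7, 0.14 for Ndufb8 and 0.00 for Ndufb3, with SEs of 0.15, 0.11 and 0.09. Leaving out IS + DIDS 1 gave 0.00 for Ndufb7, 0.06 for Ndufb8 and -0.02 for Ndufb3, and 0.35 for Ndufb2.

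**Figure D2:**
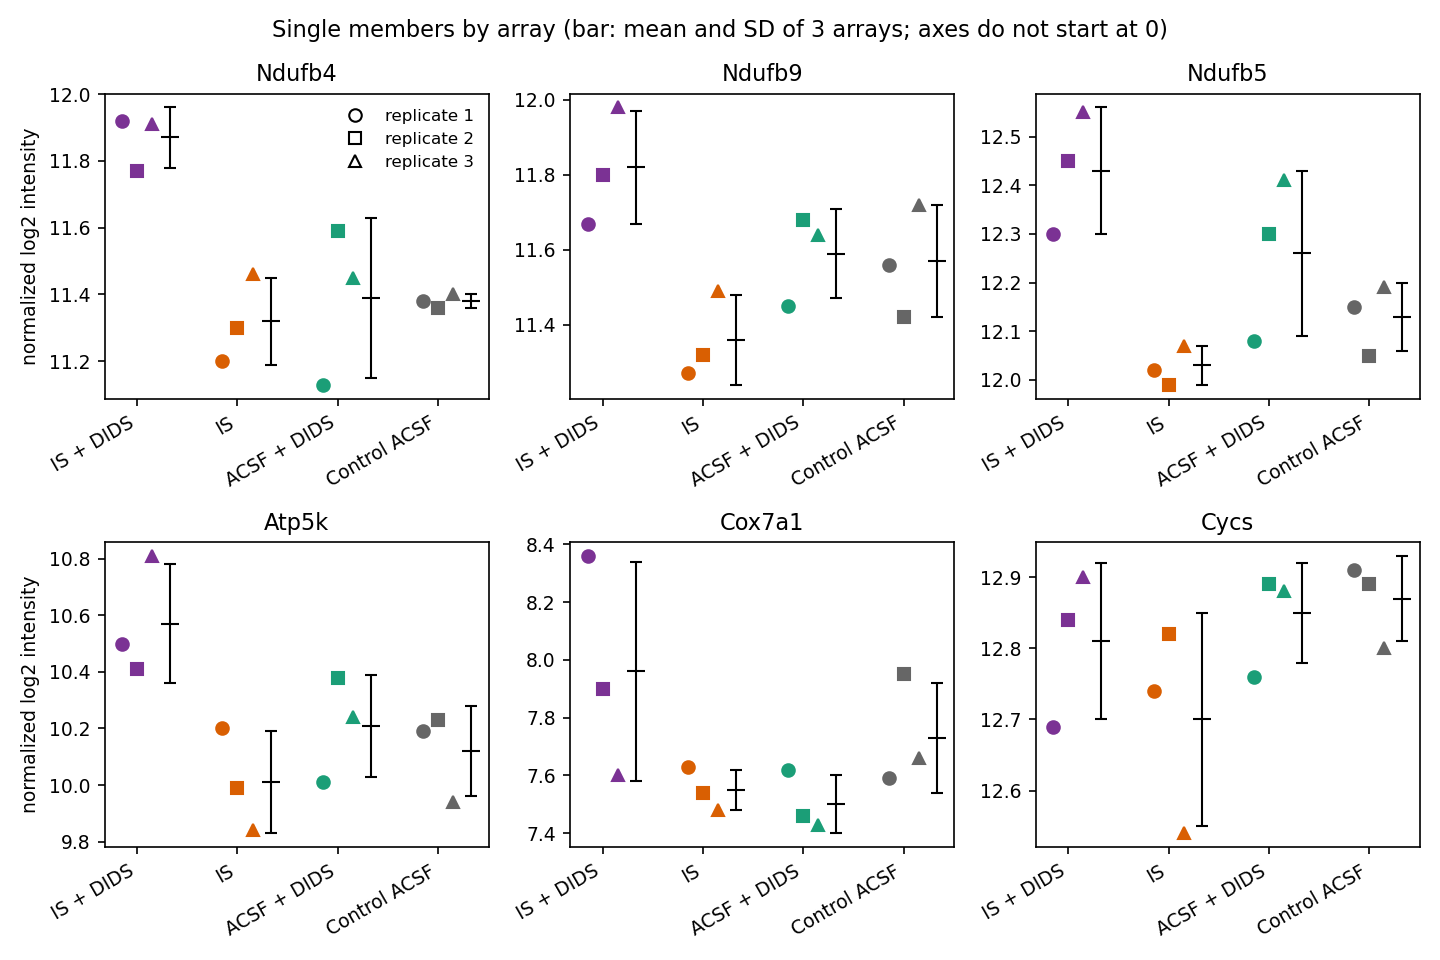
Normalized log2 intensity (vertical axes, not starting at 0) of 6 members on each of the 12 arrays, by group. Markers give the replicate, and black bars the mean and SD of 3 arrays. IS + DIDS and IS do not overlap for Ndufb4, Ndufb9, Ndufb5 and Atp5k, while they overlap for Cox7a1 and Cycs.

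The Ndufa subunits gave smaller differences. Ndufa6, an accessory subunit of the peripheral arm, read 11.95, 11.79 and 11.84 in IS + DIDS, 11.64, 11.41 and 11.63 in IS, 11.47, 11.50 and 11.53 in ACSF + DIDS, and 11.53, 11.42 and 11.63 in Control ACSF. Its IS + DIDS arrays were above the other 9, by 0.30 against IS (SE 0.10, adjusted p = 0.142) and by 0.36 against ACSF + DIDS (SE 0.10, adjusted p = 0.0899). Ndufa10 read 12.02, 11.67 and 11.97 in IS + DIDS, 11.71, 11.65 and 11.91 in IS, 12.05, 11.92 and 11.85 in ACSF + DIDS, and 11.49, 11.82 and 11.86 in Control ACSF. All 4 groups overlapped, and the difference of ACSF + DIDS from Control ACSF, 0.22 (SE 0.14, adjusted p = 0.699), shrank to 0.03 once chip entered the fit. Ndufa2 read 13.41, 12.95 and 12.96 in IS + DIDS, 13.00, 12.95 and 12.91 in IS, 12.96, 12.85 and 12.75 in ACSF + DIDS, and 12.98, 13.03 and 13.04 in Control ACSF. Its ACSF + DIDS arrays lay below Control ACSF, with a difference of -0.16 (SE 0.13, adjusted p = 0.774), and its high value on IS + DIDS 1 was the highest of the 12. The other 5 Ndufa probes of complex I differed by 0.02 (Ndufa5) to 0.27 (Ndufa7) in IS + DIDS against IS. Those 5 lay between -0.05 (Ndufa5) and 0.12 (Ndufa7 and Ndufa9) without IS + DIDS 1, where Ndufa6 was at 0.26.

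The peripheral arm and the pseudogene add a caution about probes. Ndufs4, an accessory subunit whose loss causes a Leigh-like brain disease in mice, had 2 probes, both without overlap between IS + DIDS and IS, and these differed by 0.27 (SE 0.11, adjusted p = 0.221) and 0.19 (SE 0.10, adjusted p = 0.339). Ndufs3, a core subunit, had 2 probes with differences of 0.13 (SE 0.12) and 0.02 (SE 0.21). The second Ndufs3 probe read 10.23, 10.84 and 11.04 in IS + DIDS and 10.69, 10.62 and 10.76 in IS. IS + DIDS 1 was its lowest array, and without that array its difference was 0.25. The probe assigned to Ndufs5-ps, a pseudogene of a complex I subunit, read 13.23, 13.18 and 13.17 in IS + DIDS, 13.20, 13.03 and 13.27 in IS, 12.83, 13.09 and 13.38 in ACSF + DIDS, and 12.85, 12.80 and 13.01 in Control ACSF. Its IS arrays were all above Control ACSF, and it was the member with the smallest p in IS against Control ACSF, at 0.28 (SE 0.13, unadjusted p = 0.0576, adjusted p = 0.589). The probe sequence was not used here, so signal from the parent gene Ndufs5 cannot be told apart from signal of the pseudogene.

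Assembly factors build the complexes and are not part of them. All 5 tested ones, Ndufaf2, Ndufaf3, Ndufaf4 and Ndufaf8 for complex I and Sdhaf3 for complex II, were positive in IS + DIDS against IS, with a median of 0.22 and 0 past the threshold. Leaving out IS + DIDS 1 kept the median at 0.22, with 4 of 5 positive. Ndufaf2 read 11.65, 11.72 and 11.47 in IS + DIDS, 11.37, 11.33 and 11.20 in IS, 11.20, 11.38 and 11.21 in ACSF + DIDS, and 11.84, 11.46 and 11.10 in Control ACSF. The Control ACSF arrays spread more widely than the others (SD 0.37, against 0.09 to 0.13). Its difference was 0.31 in IS + DIDS against IS (SE 0.16, adjusted p = 0.330) and -0.20 in ACSF + DIDS against Control ACSF (SE 0.16, adjusted p = 0.776), the second of which turned to 0.09 with chip as a block.

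Complexes II and III had few probes. In complex II, Sdhb (the iron-sulfur subunit), Sdhc (a membrane anchor) and Sdhaf3 differed by 0.20 (SE 0.13), 0.07 (SE 0.13) and 0.24 (SE 0.13) in IS + DIDS against IS, and the groups overlapped for all 3. Their differences were 0.07 for Sdhb, 0.01 for Sdhc and 0.25 for Sdhaf3 without IS + DIDS 1. Sdhaf3 read 9.82, 9.71 and 9.98 in IS + DIDS, 9.48, 9.77 and 9.55 in IS, 9.61, 9.49 and 9.25 in ACSF + DIDS, and 9.29, 9.50 and 9.62 in Control ACSF. Its IS + DIDS arrays were all above ACSF + DIDS, by 0.39 (SE 0.13, adjusted p = 0.138). In complex III all 4 probes, for the core subunit Uqcrc1 and the small subunits Uqcrb, Uqcrh and Uqcr11, were positive in IS + DIDS against IS, with a median of 0.15 and a range of 0.10 to 0.22. That median was 0.07 without IS + DIDS 1, and with chip as a block it was -0.02, with 1 of 4 positive.

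Most complex IV probes differed little. Of its 13 probes 12 were positive in IS + DIDS against IS, but the median was 0.06 (0.05 without IS + DIDS 1, also with 12 positive), and 10 of the 13 differed by 0.11 or less in either direction; Cox7a1, Cox7b and Cox7a2l were the other 3. Cox7b, a subunit of the oxidase, read 10.08, 10.11 and 10.38 in IS + DIDS, 9.82, 9.70 and 9.83 in IS, 9.51, 10.00 and 10.23 in ACSF + DIDS, and 9.74, 9.88 and 9.95 in Control ACSF. Its IS + DIDS arrays were above IS, by 0.41 (SE 0.16, adjusted p = 0.205), and overlapped ACSF + DIDS. Cox7a2l was counted as a supercomplex factor, for assemblies of several complexes, and not as a subunit. It read 11.78, 11.59 and 11.40 in IS + DIDS, 11.35, 11.04 and 11.37 in IS, 11.70, 11.51 and 11.60 in ACSF + DIDS, and 11.31, 11.40 and 11.12 in Control ACSF. Like Ndufb2 it was higher with DIDS in both fluids, without overlap, by 0.34 in IS + DIDS against IS (SE 0.13, adjusted p = 0.198) and by 0.32 in ACSF + DIDS against Control ACSF (SE 0.13, adjusted p = 0.510).

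Cox7a1, the isoform typical of heart and skeletal muscle, was the tested member closest to the detection limit. It read 8.36, 7.90 and 7.60 in IS + DIDS, 7.63, 7.54 and 7.48 in IS, 7.62, 7.46 and 7.43 in ACSF + DIDS, and 7.59, 7.95 and 7.66 in Control ACSF. IS + DIDS 1 was far above the rest and the groups overlapped. Its difference was 0.41 in IS + DIDS against IS (SE 0.17, adjusted p = 0.229) and 0.45 in IS + DIDS against ACSF + DIDS (SE 0.17, adjusted p = 0.161). The first was 0.20 without IS + DIDS 1. In IS against Control ACSF it was -0.18 (SE 0.17, adjusted p = 0.844), and in ACSF + DIDS against Control ACSF it was -0.23 (SE 0.17, adjusted p = 0.759).

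The other oxidase subunits lay close to 0. Cox5b, Cox6a1 and Cox6b1 had 2 probes each, and their 6 differences in IS + DIDS against IS ran from -0.01 to 0.11, with SEs of 0.09 to 0.12. The 2 Cox5b probes gave 0.11 and -0.01, the largest gap between probes of these 3 genes. A Cox6b1 probe read 13.80, 13.80 and 13.90 in IS + DIDS, 13.80, 13.63 and 13.89 in IS, 13.66, 13.76 and 13.76 in ACSF + DIDS, and 13.56, 13.72 and 13.70 in Control ACSF. It had the third-smallest p among the higher members in IS against Control ACSF, at 0.12 (SE 0.10, adjusted p = 0.828), with groups that overlapped. Cox6c, Cox7c, Cox8a and Ndufa4, a subunit first assigned to complex I and since found in complex IV, differed by 0.05, 0.04, 0.06 and 0.02 in IS + DIDS against IS.

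Cytochrome c carries electrons from complex III to complex IV and, once released into the cytosol, triggers caspases. Cycs read 12.69, 12.84 and 12.90 in IS + DIDS, 12.74, 12.82 and 12.54 in IS, 12.76, 12.89 and 12.88 in ACSF + DIDS, and 12.91, 12.89 and 12.80 in Control ACSF. All pairs of groups overlapped. Its differences were 0.11 in IS + DIDS against IS (SE 0.11, adjusted p = 0.633), -0.17 in IS against Control ACSF (SE 0.11, adjusted p = 0.726), -0.02 in ACSF + DIDS against Control ACSF (SE 0.11, adjusted p = 0.977) and -0.03 in IS + DIDS against ACSF + DIDS (SE 0.11, adjusted p = 0.881).

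In complex V a pair of small membrane subunits gave the largest differences. All 9 probes were positive in IS + DIDS against IS, with a median of 0.10, and 7 of the 9 lay between 0.00 and 0.11. The median of the 9 was 0.01 without IS + DIDS 1, with 6 positive, and with chip as a block it was -0.02, with 4 positive. Atp5k, subunit e, which helps synthase dimers form, read 10.50, 10.41 and 10.81 in IS + DIDS, 10.20, 9.99 and 9.84 in IS, 10.01, 10.38 and 10.24 in ACSF + DIDS, and 10.19, 10.23 and 9.94 in Control ACSF. Its IS + DIDS arrays were above the other 9, and its difference from IS was 0.57, the largest of the 55 (SE 0.15, adjusted p = 0.0577). The block for chip brought it to 0.75 and past the threshold (adjusted p = 0.0481), and without IS + DIDS 1 it was 0.60. Atp5md, a small subunit needed for dimers in mammals, read 11.62, 11.55 and 11.87 in IS + DIDS, 11.14, 11.00 and 11.54 in IS, 11.02, 11.41 and 11.52 in ACSF + DIDS, and 11.06, 11.26 and 11.27 in Control ACSF. Its lowest IS + DIDS array was just above its highest IS array, and the difference was 0.45 (SE 0.17, adjusted p = 0.168).

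The remaining synthase probes showed little. Atp5g1, 1 of the genes for the c ring, read 12.96, 12.81 and 13.05 in IS + DIDS, 12.74, 12.90 and 12.89 in IS, 13.13, 13.00 and 12.90 in ACSF + DIDS, and 12.77, 12.89 and 13.27 in Control ACSF. The groups overlapped, and its difference was 0.10 in IS + DIDS against IS (SE 0.13, adjusted p = 0.747) and -0.07 in IS + DIDS against ACSF + DIDS (SE 0.13, adjusted p = 0.783). Atp5g2, a second c ring gene, read 11.37 on IS + DIDS 1 and 10.70 to 11.02 on the other 11 arrays, and its difference of 0.11 from IS became -0.09 without that array. Atp5c1, the gamma subunit of the rotor, differed by 0.11 (SE 0.11), and Atp5l, Atp5h, Atp5j2 and Atp5mpl by 0.00, 0.10, 0.07 and 0.08.

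**Figure D3:**
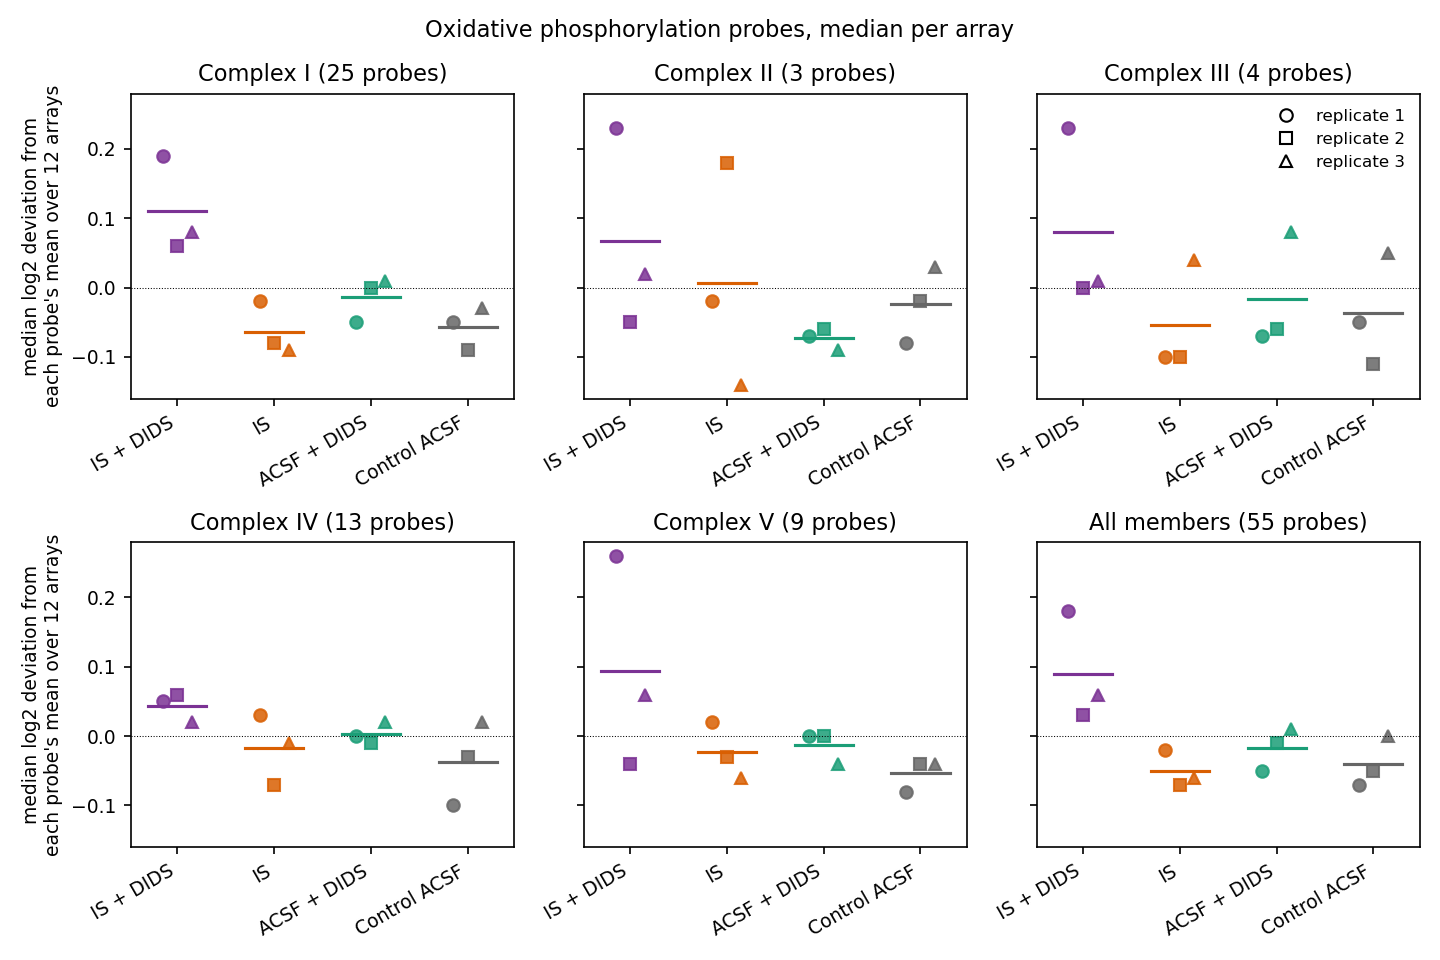
Median log2 deviation (vertical axis) of the probes of each complex, and of all 55 members, from each probe's mean over the 12 arrays, 1 marker per array, with marker shape for the replicate and bars for group means. IS + DIDS 1 is highest in complexes I, II, III and V, while in complex IV the IS + DIDS arrays lie between 0.02 and 0.06.

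Chip was the other known difference between arrays. Of the 9 arrays of known chip, Control ACSF 1 and 2 and IS 1 were on chip 1, and Control ACSF 3, IS 3, ACSF + DIDS 2 and 3 and IS + DIDS 2 and 3 were on chip 2. On these 9 arrays 42 of 55 members were positive in IS + DIDS against IS, with a median of 0.07, against 0.02 for all tested probes. None was called, against 249 of all tested probes. An unadjusted p under 0.05 was reached by 6 members (10.9%), all higher, against 17.4% of all probes (7.69% higher). With chip as a block 37 of 55 members were positive, with a median of 0.05, against 0.02 for all tested probes. In that fit 1 member was called (Atp5k), and 9 (16.4%), all higher, had an unadjusted p under 0.05, against 21.5% of all probes (10.2% higher). The number of all probes called in that fit is not given here, so the call of Atp5k has no share beside it. Within chip 2, which set 2 IS + DIDS arrays against 1 IS array, 44 of 55 were positive, with a median of 0.12, against 0.02 for all tested probes. In IS against Control ACSF the median was 0.03 within chip 1 and -0.07 within chip 2, each with 1 IS array. The members' median of IS + DIDS against IS was above 0 in all 33 ways of processing, at 0.05 to 0.18, while that of all tested probes ran from -0.03 to 0.04. Several of these ways cannot move a difference of group means. Leaving out a Control ACSF or ACSF + DIDS array and the replicate block are examples, and they gave 0.13 again. In IS against Control ACSF the members' median ran from -0.07 to 0.12 over 34 ways.

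**Figure D4:**
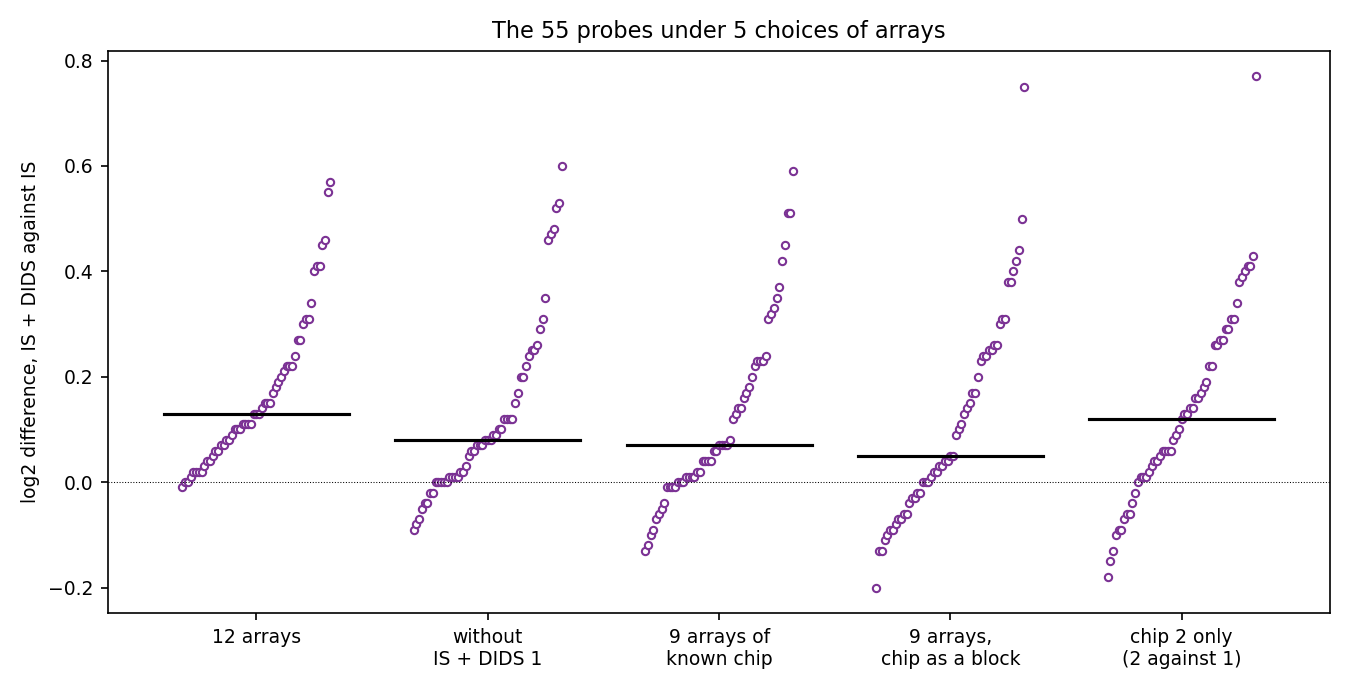
Log2 difference in IS + DIDS against IS (vertical axis) of each of the 55 probes, sorted, under 5 choices of arrays, with bars for medians. The median is 0.13 with 12 arrays, 0.08 without IS + DIDS 1, 0.07 on 9 arrays of known chip, 0.05 with chip as a block and 0.12 on chip 2.

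The 120 bases before the annotated start are shown for 4 of the 5 genes with the smallest p in IS + DIDS against IS, because these were the members that stood highest above their spread; Ndufb9 is named only. Sequences are RefSeq's on GRCm38.p6, read 5′ to 3′ on the gene's strand, at chr16:37654369-37654488 (minus) for Ndufb4, chr5:108434400-108434519 (minus) for Atp5k, chr3:32736943-32737062 (plus) for Ndufb5 and chr15:82354292-82354411 (minus) for Ndufa6. Capitals mark the motifs searched on both strands: GCGCATGCG (NRF1), CCGGAAG (ETS factors such as GABP), AAGATGGC (YY1) and AAGGTCA (ERR). The NRF1 motif nearly reads the same on both strands, and its 2 matches in Atp5k overlap.
Ndufb4: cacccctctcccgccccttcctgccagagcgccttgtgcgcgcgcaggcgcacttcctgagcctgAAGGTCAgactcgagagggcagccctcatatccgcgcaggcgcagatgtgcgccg
Atp5k: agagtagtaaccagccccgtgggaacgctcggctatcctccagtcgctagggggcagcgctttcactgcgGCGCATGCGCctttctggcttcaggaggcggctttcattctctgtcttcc
Ndufb5: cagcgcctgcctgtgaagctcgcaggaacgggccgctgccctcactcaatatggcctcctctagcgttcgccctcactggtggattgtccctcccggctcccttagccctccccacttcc
Ndufa6: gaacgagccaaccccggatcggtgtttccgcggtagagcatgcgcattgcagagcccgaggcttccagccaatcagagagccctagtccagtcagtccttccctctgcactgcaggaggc

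These letters occur in windows from 250 bases before to 50 after the start. The NRF1 motif was in 9 of the 43 member genes with a window (20.9%), against 1.95% of all 27025 genes. The ETS motif was in 32.6% of member genes, against 9.93% of all genes, the YY1 motif in 14.0%, against 3.19%, and the ERR motif in 9.3%, against 5.38%. Ndufb4 and Atp5k held an ERR match, Atp5k also NRF1 and ETS matches, and Ndufb5 and Ndufa6 held none of the 4 motifs, so no motif was in all 4. A match describes the letters only.

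Other mitochondrial genes were counted from 6 lists outside the naming rule. In IS + DIDS against IS, none of their members passed the adjusted threshold in limma in either direction, against 3.07% of all tested probes. Among all tested probes 52.5% were higher, with a median of 0.01, and 18% had an unadjusted p under 0.05. Of further assembly factors 9 of 12 probes were higher, with a median of 0.12, and 3 had an unadjusted p under 0.05, among them Sco1, which delivers copper to complex IV, at 0.30 (SE 0.11, adjusted p = 0.171). Of tricarboxylic acid cycle and pyruvate entry genes 7 of 9 probes were higher, with a median of 0.18, and 2 had such a p, with malate dehydrogenase Mdh2 at 0.45 (SE 0.16, adjusted p = 0.153). Those medians were 0.14 and 0.17 without IS + DIDS 1. Other respiratory chain genes, such as Cyc1 and Etfa, were higher for 4 of 6 probes (1 with such a p), carriers and coupling genes for 3 of 6 (1) and antioxidant enzymes for 3 of 3 (0), or 3, 4 and 3 probes without IS + DIDS 1. Of 14 listed regulators of mitochondrial biogenesis only 3 were tested, on 4 probes. Those went the other way, with 0 of 4 probes higher, a median of -0.34 and 2 with such a p. Their median was -0.29 without IS + DIDS 1 and -0.13 with neqc on the scanner signals. Gabpb1 and Gabpa, subunits of the ETS factor GABP that binds promoters of respiratory genes, gave -0.53 for Gabpb1 (SE 0.14, adjusted p = 0.0574) and -0.42 and -0.25 for the 2 Gabpa probes (adjusted p = 0.137 and 0.347). The remaining probe, for Ppargc1b, gave -0.15 (SE 0.14, adjusted p = 0.615), so the class was read mainly through 1 factor. With the replicate number as a block, 1 tricarboxylic acid cycle probe passed as higher and 1 regulator probe as lower.

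Markers of the cell types in the slices gave no call in IS + DIDS against IS either. Neurons had 2 of 6 probes higher, astrocytes 2 of 4, oligodendrocytes 1 of 3, microglia 4 of 4 and the fibroblast gene Dcn 2 of 2. Of 6 endothelial marker symbols only 1 had a named probe, and it was below the detection rule, so endothelium was not assessed. The counts without IS + DIDS 1 were 4 of 6 for neurons, 1 of 4 for astrocytes, 2 of 4 for microglia and, as before, 1 of 3 for oligodendrocytes and 2 of 2 for Dcn. The summed microglial markers were 5751 to 10589 intensity units in IS + DIDS and 5948 to 7031 in IS, and the summed astrocyte markers 25113 to 31285 in IS + DIDS and 31295 to 36033 in IS. The part of these markers in the members' differences was not tested.

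Another 7 probes were below the detection rule and were not tested. They were the only named probes of Sdha, the catalytic subunit of complex II, of Ndufab1, Ndufaf6 and Ndufaf7, and second named probes of Ndufc1, Sdhc and Atp5md. The third-highest detection score was 0.98752 for Ndufaf7 and 0.98316 for Ndufab1, just outside the rule, and 0.99750 for Cox7a1, just inside it. Mean levels of the tested probes ran from 7.69 for Cox7a1 to 14.65 for Cox6c in complex IV on the log2 scale, and 49 of the 55 lay in the brightest 3 of 10 equal bins of all tested probes. In those bins the median difference of all probes was 0.01 to 0.02 for IS + DIDS against IS. The lowest and highest tested probes were Ndufb2 (8.83) and Ndufa13 (14.23) in complex I, Sdhaf3 (9.59) and Sdhc (12.53) in complex II, Uqcrb (12.23) and Uqcrh (13.94) in complex III, and Atp5k (10.23) and Atp5j2 (14.57) in complex V. Levels of different probes do not rank transcripts, since each probe binds with its own strength.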

How the data were processed

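Intensities per probe came from mouse hippocampal slice cultures on Illumina Mouse-6 v1.1 arrays, 3 samples in each of 4 groups. The deposited scanner files hold mean bead intensity, not normalized between arrays, and a detection score from 0 to 1, per the file headers (BeadStudio 2.3.47; the submitters' processing notes name BeadStudio 2.0). The deposited value table holds intensities that the authors normalized by a method not given in the sources used here: from the values, they are linear, share nearly 1 distribution and keep their background.

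Among the 12 scanner files 9 arrays were distinct. The files of IS 2, ACSF + DIDS 1 and IS + DIDS 1 matched the value table columns of ACSF + DIDS 3, IS + DIDS 2 and IS + DIDS 3 (rank correlations 1.0, 0.9999 and 0.9999, against 0.9526, 0.9547 and 0.9542 with their own). The planned fit, on neqc-normalized scanner signals of the 7 arrays lying in 1 group, was therefore replaced by limma on log2 of the value table's 12 columns. A test of IS + DIDS against ACSF + DIDS was added for the same reason. The planned fit is kept as an alternative.

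The test took the 16717 probes whose score passed 0.99 on 3 or more of the distinct arrays. Probe names holding a padded Entrez gene number of 10000 or more were named through RefSeq (GRCm38.p6). Limma 3.58.1 (R 4.3.3) fitted 1 mean per group with 8 residual degrees of freedom, Benjamini-Hochberg adjustment over all tested probes and a threshold of 0.05. Fold changes are on the log2 scale without background subtraction, which understates those of dim probes, and the number of arrays limits the precision. The script was tested on simulated data.

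Samples were grouped by title. Deviations of same-numbered samples correlated at 0.2, 0.14 and 0.43 for IS and Control ACSF and at 0.2, 0.15 and 0.13 for IS + DIDS and IS. These numbers were therefore taken to pair the samples, by the rule of over 0.1 in every pair, from the data and not the labels. Differently numbered samples were not compared, so whether the numbers mark true pairs was not tested. Control ACSF 1 and IS 1 shared chip 1, and Control ACSF 3 and IS 3 shared chip 2, so pairing and chip cannot be told apart there. For ACSF + DIDS and Control ACSF the correlations were 0.05, 0.05 and 0.03, and for IS + DIDS and ACSF + DIDS they were -0.25, 0.23 and -0.32. Genes given with the value of every array were, per comparison, the 3 members with the smallest p each way (2 with the largest difference each way in IS + DIDS against ACSF + DIDS), any member past the threshold, and Cycs; others shown with every array (Ndufb5, Ndufa6, Ndufs3, Sdhaf3, Cox7b and Atp5md) were chosen after their values were seen. The members and gene lists were chosen with earlier results of these data known.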

Additional observations from a re-analysis of the deposited data

How the results depend on the processing

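Across 33 ways of processing, the median member difference of IS + DIDS against IS kept its sign, and it moved from 0.13 to 0.08 with neqc on the scanner signals of 9 arrays, 0.07 with normexp, without background correction, on the 9 arrays of known chip, with all 12 files as labelled or with repeated files counted as IS and as IS + DIDS, and 0.05 with median scaling or with chip as a block. For IS + DIDS against ACSF + DIDS it moved from 0.10 to 0.05 with neqc, normexp, no background correction or all 12 files as labelled, 0.06 on 9 arrays, with chip as a block or on chip 2, and 0.02 with median scaling. For IS against Control ACSF it was 0.12 with median scaling (0.08 for all tested probes) and -0.07 on chip 2 (-0.01 for all tested probes). For ACSF + DIDS against Control ACSF it was 0.16 with median scaling (0.05 for all tested probes). IS 1 had a median scanner signal of 131.9, against 69.5 to 83.6 on the other arrays of known chip, and its part in the fits on scanner signals was not tested. Median scaling moved the median of all tested probes by less than 0.1. Leaving out 1 array gave medians of 0.08 to 0.18 for IS + DIDS against IS, 0.06 to 0.14 for IS + DIDS against ACSF + DIDS, -0.03 to 0.02 for IS against Control ACSF and 0.01 to 0.05 for ACSF + DIDS against Control ACSF. Leaving out an array outside the groups compared cannot move such a median, and neither can the replicate block. Those ways therefore add nothing on whether its sign is kept.

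Of the members, 1 was called in IS + DIDS against IS, namely Ndufb4, beside 514 calls over all probes. With neqc the 1 called was Ndufb5 (adjusted p = 0.0437 in limma), beside 205 calls over all probes. Without IS + DIDS 1 it was Ndufb9, beside 503 calls over all probes. With chip as a block the 1 called member was Atp5k. The count was 2 with the replicate block, 0 to 1 with 1 array left out, and 0 with normexp, without background correction, with median scaling, in the planned fit on 7 arrays, in each way of counting the repeated files, with all 12 files as labelled, on 9 arrays, on chip 2, with only the arrays of the groups compared, and with ACSF + DIDS 2 counted as IS + DIDS as its description has it. In the other comparisons and the interaction it was 0 in every alternative, the block included. Numbers met the pairing rule in 2 comparisons only, and the replicate block changed no other call among the members. For ACSF + DIDS against Control ACSF, where the rule was not met, the block gave 116 calls over all probes, against 99. For IS + DIDS against IS the block gave 620 calls over all 16717 probes, against 514, beside the 2 among the 55 members.

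Calls over all probes were 514 in IS + DIDS against IS. They were 205 with neqc, 241 with normexp, 243 without background correction, 316 with median scaling, 0 on 7 arrays, 1, 143 and 1 with repeated files counted as IS and ACSF + DIDS, as IS and IS + DIDS, or both as ACSF + DIDS, 0 with all 12 files as labelled, 249 on 9 arrays, 12 on chip 2, 84 with only the groups compared, 84 with ACSF + DIDS 2 counted as IS + DIDS, and 121 (without IS 1) to 518 with 1 array left out, with 222 without IS + DIDS 3, 243 without IS + DIDS 2 and 275 without IS 2. In IS against Control ACSF they were 149, and 30, 71, 3, 0, 3, 3, 22, 96, 81, 37 and 81 with neqc, median scaling, 7 arrays, the 3 ways of counting repeats, 12 files, detection on all 9 arrays, 9 arrays, chip 2 and ACSF + DIDS 2 as IS + DIDS, and 64 (without Control ACSF 2) to 226 (without IS + DIDS 1) with 1 array left out, with 68 without IS 2, 75 without Control ACSF 1 and 97 without IS 1. In ACSF + DIDS against Control ACSF they were 99, and 10, 60, 60, 5, 0, 0, 0, 1, 28, 43, 43, 45 and 27 with neqc, normexp, no background correction, median scaling, 7 arrays, the 3 ways of counting repeats, 12 files, detection on all 9 arrays, chip as a block, chip 2 and ACSF + DIDS 2 as IS + DIDS, and 59 (without Control ACSF 1 or 2) to 139 with 1 array left out, with 60 without ACSF + DIDS 3 and 63 without ACSF + DIDS 2. Fewer arrays enter most of these fits, and the cause of the other moves was not tested.

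Among the member differences chosen by the naming rule of the methods, signs turned for 6 members, none with a call there; other members turned too, such as Atp5g2 without IS + DIDS 1, and with chip as a block 37 of 55 members were positive in IS + DIDS against IS, against 54 with 12 arrays. Ndufb2 in IS against Control ACSF was -0.01 on chip 2. In ACSF + DIDS against Control ACSF, Ndufaf2 was 0.10 with repeats counted as IS and ACSF + DIDS, 0.09 with chip as a block and 0.20 on chip 2. Cycs there was 0.00 with neqc, normexp, no background correction or repeats as IS and ACSF + DIDS, 0.02 on 7 arrays, with repeats as IS and IS + DIDS or on 9 arrays, 0.15 with median scaling, 0.12 with chip as a block, 0.09 on chip 2, and -0.05 to 0.02 with 1 array left out. In IS + DIDS against ACSF + DIDS, with 7 arrays, repeats as IS and ACSF + DIDS, both repeats as ACSF + DIDS and 12 files, Atp5g1 was 0.03, 0.12, 0.13 and 0.06, Ndufa10 was 0.06, 0.19, 0.18 and 0.07, and Cycs was 0.02, 0.04, 0.04 and 0.02. Cycs there was also 0.01 with neqc, normexp, no background correction or ACSF + DIDS 2 as IS + DIDS, and -0.08 to 0.03 with 1 array left out, where Ndufa10 was -0.12 to 0.05. Cox7a1 there was -0.03 with repeats as IS and ACSF + DIDS and -0.00 with both repeats as ACSF + DIDS.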
